A study of Homo sapiens with 4 samples.

Results

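The 9 enzymes described here make, activate or clean up deoxynucleotides and pyrimidines, and their mRNAs were measured in PC9 cells with and without TPX2 knockdown. They are RRM1, RRM2, TYMS, TK1, DUT, DCK, DCTPP1, CAD and UMPS, chosen by name, and all 9 were found among the 18134 genes of the deposited expression table and tested. PC9 is an established cell line of human lung adenocarcinoma. A first group carried shNC, a control hairpin, and the other carried shTPX2, a hairpin against TPX2, which encodes a spindle assembly protein. By the treatment protocol both were delivered by lentivirus, followed by antibiotic selection for stable lines. Under that protocol the control cells share the vector, the selection and the DMEM culture. A label field instead calls the cells transfected. Each group had 2 libraries, all 4 in a single labelled batch, prepared from polyadenylated RNA. The labels do not say whether the libraries of a group came from separate cultures, so the p-values measure the spread between these libraries, which may be technical.

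The building blocks of DNA are made along a short chain of enzymes. CAD carries out the opening steps of pyrimidine ring synthesis and UMPS the closing steps, which end in uridine monophosphate. Ribonucleotide reductase, made of the large subunit RRM1 and a small subunit, then converts ribonucleotides to deoxyribonucleotides. RRM2 is the small subunit of dividing cells and is known to be made mainly in S phase, while RRM2B is an alternative small subunit known as a p53 target. Thymidylate has a pair of sources, namely TYMS, which methylates deoxyuridine monophosphate with a folate cofactor and is the target of 5-fluorouracil, and TK1, which phosphorylates thymidine in the cytosol. DUT breaks down dUTP and so supplies TYMS while keeping uracil out of DNA. DCK phosphorylates deoxycytidine and activates drugs such as gemcitabine, and DCTPP1 hydrolyses dCTP and its modified forms.

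The upstream sequences of 3 members that were higher in shTPX2, and of CAD, which was nearly level, are shown because genes of this pathway are textbook targets of cell cycle promoter elements. Each run holds the 250 bases before an annotated start in RefSeq (GRCh38.p14), read 5′ to 3′ on the strand of the gene. Capitals mark the letters CCAAT, which read ATTGG when the element lies on the other strand, and the E2F-type letters TTTGGCGC, TTTCCCGC, TTTCGCGC or TTTGCCGC on either strand. RRM2 and TK1 each have 2 annotated starts, and the stretches shown precede the inner one, which has more of these letters. RRM2 is at chr2:10122489-10122738 (plus strand), TK1 at chr17:78187053-78187302 (minus strand), TYMS at chr18:657403-657652 (plus strand) and CAD at chr2:27217119-27217368 (plus strand).
RRM2: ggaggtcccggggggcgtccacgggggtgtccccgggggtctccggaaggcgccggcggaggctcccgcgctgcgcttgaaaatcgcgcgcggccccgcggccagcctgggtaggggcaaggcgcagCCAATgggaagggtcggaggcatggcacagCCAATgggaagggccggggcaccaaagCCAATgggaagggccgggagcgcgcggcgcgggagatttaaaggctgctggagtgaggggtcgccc
TK1: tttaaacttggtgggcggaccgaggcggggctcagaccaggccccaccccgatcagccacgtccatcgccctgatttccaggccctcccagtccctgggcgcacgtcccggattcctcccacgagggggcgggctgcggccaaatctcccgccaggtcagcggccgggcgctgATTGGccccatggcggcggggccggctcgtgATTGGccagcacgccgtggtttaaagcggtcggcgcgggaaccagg
TYMS: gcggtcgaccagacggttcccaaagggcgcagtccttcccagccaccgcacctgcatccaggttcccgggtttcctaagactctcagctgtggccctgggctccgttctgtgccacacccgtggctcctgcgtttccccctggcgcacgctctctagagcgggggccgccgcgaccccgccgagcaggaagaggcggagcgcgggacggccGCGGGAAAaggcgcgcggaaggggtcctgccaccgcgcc
CAD: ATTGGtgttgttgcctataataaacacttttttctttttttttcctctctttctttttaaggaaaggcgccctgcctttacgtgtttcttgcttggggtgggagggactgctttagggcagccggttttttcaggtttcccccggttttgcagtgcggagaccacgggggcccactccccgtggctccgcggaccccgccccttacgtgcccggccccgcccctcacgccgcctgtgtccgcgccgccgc

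In the RRM2 stretch CCAAT occurred 3 times, beginning 123, 93 and 66 bases before the start, and 3 or more copies were found in 3.26% of the 35116 annotated start windows of 300 bases (250 before and 50 after a start). In TK1 the same letters occurred in 2 places on the opposite strand, beginning 77 and 46 bases before the start, and 10.8% of windows held 2 or more copies. TYMS held 1 E2F-type match, 39 bases before its start. Such a match was present in 3.31% of all windows and, among the members, also in DUT and DCK. The 1 CCAAT match of CAD lay at the far end of its stretch, 250 bases before the start, and 34.6% of windows held at least 1 copy. The other letters searched were GGCGGGAA, which overlaps the E2F-type letters, in RRM1 and DUT (3.16% of windows), GGGCGG in 7 members (45.0% of windows) and CACGTG in DCK and DCTPP1 (7.26% of windows). The outer start of RRM2 had 1 CCAAT in its window and that of TK1 none, so the copy numbers depend on the start. A member was counted when any of its starts matched, while the percentages count single windows. The counts and percentages are therefore not like for like, since DUT has 4 annotated starts and RRM2 and TK1 have 2 each. DCTPP1 and UMPS, which were also higher at the criteria for differentially expressed genes (DEGs) given with the results, held neither CCAAT nor the E2F-type letters, while RRM1, which did not meet them, held CCAAT 28 bases before its start. A stretch within the 50 bases after the start was sought in the GENCODE v29 transcripts of the same gene. It was found for every start of the other members but not for CAD or RRM1. The distances given for CAD and RRM1 therefore rest on the RefSeq start alone. These matches describe the sequence only, and no binding was measured.

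TPX2 itself measured 55.0 and 112 TPM (a transcript level scaled for length and depth) in shNC 1 and 2 and 43.4 and 43.8 TPM in shTPX2 1 and 2. The fitted log2 fold change was −0.81 (± 0.32 SE, edgeR adjusted p = 0.618), and it moved to −0.25 without shNC 2 and to −1.22 without shNC 1. Both shTPX2 libraries lay below both controls, and the size of the difference depended on which control library was used. The hairpin targets cgtgaacttgatcccagaata, a run of 21 bases of the TPX2 transcript, and the longest stretch of it found in any GENCODE v29 transcript of the members was 9 bases, in TK1 and CAD. Expected counts per library summed to between 20906441 and 21972583, and each member had between 234 and 3506 counts in every library. All 6 epithelial markers examined (EPCAM, KRT8, KRT18, KRT19, CDH1 and EGFR) were at 78.4 TPM or more in every library, while 5 of 8 markers of leukocytes, endothelium and fibroblasts stayed under 1 TPM. CD68, PECAM1 and COL1A1 were the exceptions, and the summed level of the 8 markers ranged from 141 to 248 TPM in shNC and from 183 to 202 TPM in shTPX2. Their part in the results was not tested.

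RRM2, TK1, TYMS, DCTPP1 and UMPS, 5 of the 9 enzymes, were higher in shTPX2 at the DEG criteria. A gene met these when limma with the voom transformation gave it an unadjusted p no greater than 0.1 and its log2 fold change was 0.3 or more in either direction. None of the 9 was lower at these criteria. By comparison, 14.2% of the 14048 genes tested met them, with 6.24% higher and 7.99% lower. The fitted log2 fold change was above 0 for all 9 members, against 48.9% of all tested genes, and its median was 0.33 over the members and −0.01 over all genes. RRM2 had the highest value and CAD the lowest. The quasi-likelihood test of edgeR, with p-values adjusted over all tested genes, called 0 members at an adjusted p under 0.05, and 0.0% of all genes. At an unadjusted p under 0.05 it gave 3 members (RRM2, TK1 and DCTPP1), all higher, against 3.13% of all genes higher and 8.03% in either direction. DESeq2 called 0 members at an adjusted p under 0.05, against 111 of all genes (0.79%), and gave 4 at an unadjusted p under 0.05, against 7.5%.

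**Figure D1:**
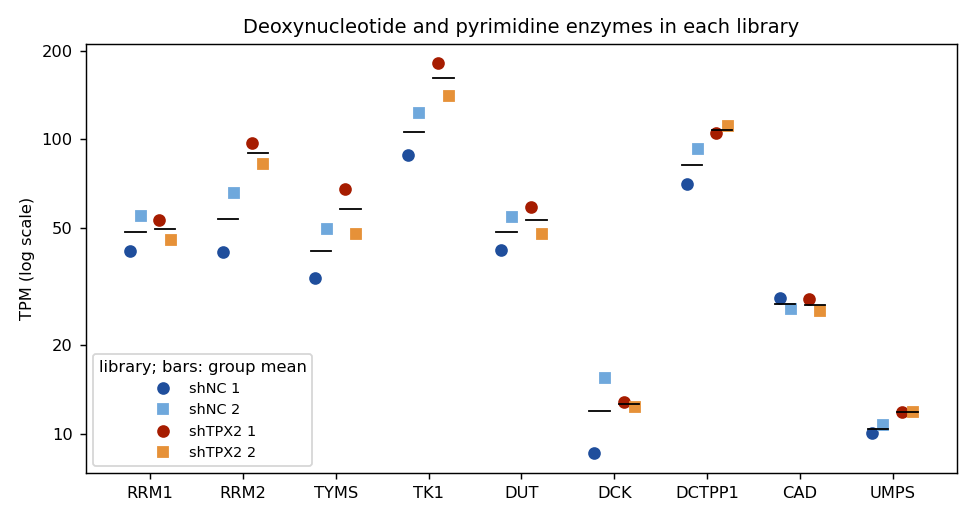
TPM of each enzyme (vertical axis, log scale) in the 4 libraries, with shNC in blue, shTPX2 in red and orange, and the mean of each group as a bar. RRM2, TK1, DCTPP1 and UMPS lie above both shNC libraries in both shTPX2 libraries, while CAD is nearly level.

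The subunits of ribonucleotide reductase differed in their values, with RRM2 higher in shTPX2 and RRM1 overlapping between the groups. RRM2 (chr2:10122568-10211010, NCBI gene 6241) measured 41.4 and 65.8 TPM in shNC 1 and 2 and 97.0 and 82.5 TPM in shTPX2 1 and 2. Both knockdown libraries lay above both controls, and the means were 53.6 ± 17.3 and 89.7 ± 10.3 TPM (SD, n = 2 each). The fold change was 1.83, which gave a log2 fold change of 0.87 (± 0.25 SE, edgeR adjusted p = 0.579, limma 95% interval 0.30 to 1.5). It was 0.59 without shNC 1 and 1.22 without shNC 2, and RRM2 met the DEG criteria with any single library left out. RRM1 (chr11:4094685-4138932, NCBI gene 6240), the partner that holds the catalytic site, measured 41.8 and 55.1 TPM in the controls and 53.4 and 45.6 TPM after knockdown. Here the groups overlapped, with the highest and the lowest value both in shNC. The log2 fold change of RRM1 was 0.16 (± 0.20 SE, edgeR adjusted p = 0.869), and the limma 95% interval from −0.32 to 0.64 leaves room for a change in either direction.

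The balance of the subunits was followed as a ratio of TPM values within each library. RRM2 to RRM1 was 0.99 and 1.20 in shNC and 1.82 and 1.81 in shTPX2, and the groups did not overlap. RRM2B, the alternative small subunit, was at 12.1 and 12.4 TPM in shNC and at 8.80 and 7.44 TPM in shTPX2. The fitted log2 fold change was −0.47 (± 0.19 SE, edgeR adjusted p = 0.621). RRM2B was lower at the DEG criteria, a call that was lost without shTPX2 2. The ratio of RRM2 to RRM2B therefore went from 3.41 and 5.29 in shNC to 11 and 11.1 in shTPX2, and that of RRM1 to RRM2B from 3.45 and 4.43 to 6.06 and 6.13. The ratios were not tested, and with 2 libraries against 2 the smallest two-sided p that an exact permutation test could give is 0.333.

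The mRNAs of both thymidylate routes were higher at the DEG criteria. TK1 (chr17:78174079-78187204, NCBI gene 7083), the salvage kinase, measured 88.5 and 123 TPM in the controls and 181 and 140 TPM after knockdown. It was the most abundant member in both groups, at 106 ± 24.5 TPM in shNC and 161 ± 29 TPM in shTPX2 (SD, n = 2 each), and its groups did not overlap. The log2 fold change was 0.73 (± 0.23 SE, edgeR adjusted p = 0.579, limma 95% interval 0.18 to 1.28), a fold change of 1.66. TK1 met the DEG criteria with any single library left out. TYMS (chr18:657653-673578, NCBI gene 7298), the de novo enzyme, measured 33.9 and 49.5 TPM in the controls and 68.1 and 47.6 TPM after knockdown. On this scale its groups overlapped, since shTPX2 2 lay just below shNC 2. In log2 CPM (counts scaled for library size) with TMM factors, which correct for differences in library composition, the order of those libraries was the other way round and the groups did not overlap. The log2 fold change of TYMS was 0.60 (± 0.27 SE, edgeR adjusted p = 0.647, limma 95% interval −0.06 to 1.25), a fold change of 1.52 that rested on single libraries. Without shNC 1 it was 0.38 and without shTPX2 1 it was 0.29, and the DEG call was lost in both cases. The ratio of TYMS to TK1 was 0.382 and 0.402 in shNC and 0.376 and 0.340 in shTPX2. The mitochondrial thymidine kinase TK2, which does not follow the cell cycle, measured 8.77 and 8.30 TPM in the controls and 7.63 and 7.57 TPM after knockdown (log2 fold change −0.05, edgeR adjusted p = 0.966).

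TYMS lies on chromosome 18 beside a gene that complicates its count. The 3′ end of TYMS overlaps ENOSF1, which is transcribed from the opposite strand, and TYMSOS overlaps it as well. The strand setting of the quantification is not given in the sources used here, so reads of the overlap cannot be assigned with certainty. ENOSF1 measured 9.57 and 7.98 TPM in shNC against 11.2 TPM in both shTPX2 libraries, which gave a log2 fold change of 0.29 (± 0.24 SE, edgeR adjusted p = 0.791). That value was 0.15 without shNC 2 and 0.43 without shNC 1. Processed pseudogenes can also take reads from their parent genes. RefSeq names 3 numbered pseudogenes for RRM2, 2 for TYMS and 8 for DUT, and none of them is listed in the table.

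The enzymes that clear unwanted nucleotides were DUT and DCTPP1. DCTPP1 (chr16:30423615-30430030, NCBI gene 79077) measured 70.7 and 92.5 TPM in the controls and 105 and 111 TPM after knockdown, with both knockdown libraries above both controls. The fitted log2 fold change was 0.54 (± 0.18 SE, edgeR adjusted p = 0.587, limma 95% interval 0.10 to 1.00). It was 0.37 without shNC 1, and the DEG call was lost there. DUT (chr15:48331095-48343373, NCBI gene 1854) measured 42.2 and 54.6 TPM in the controls and 59.0 and 47.8 TPM after knockdown, and the groups overlapped. The log2 fold change of DUT was 0.32 (± 0.20 SE, edgeR adjusted p = 0.738), which did not meet the DEG criteria with all libraries, but did without shNC 2, where it was 0.48. The value was 0.17 without shNC 1 and 0.15 without shTPX2 1.

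DCK (chr4:70993649-71030914, NCBI gene 1633), the deoxycytidine kinase, measured 8.60 and 15.5 TPM in the controls and 12.9 and 12.4 TPM after knockdown. The shNC libraries enclosed the shTPX2 libraries. The log2 fold change was 0.20 (± 0.30 SE, edgeR adjusted p = 0.893), and it turned to −0.14 without shNC 1 and reached 0.65 without shNC 2, where DCK met the DEG criteria.

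Of the enzymes of pyrimidine ring synthesis, UMPS met the DEG criteria and CAD did not. CAD (chr2:27217369-27243943, NCBI gene 790) measured 28.9 and 26.6 TPM in the controls and 28.8 and 26.1 TPM after knockdown, and the groups overlapped. The fitted log2 fold change was 0.06 (± 0.18 SE, edgeR adjusted p = 0.949), and its sign changed with the scaling, at −0.01 with library size only. The limma 95% interval ran from −0.36 to 0.49. UMPS (chr3:124730452-124749273, NCBI gene 7372) was the least abundant member in both groups, with 10.1 and 10.7 TPM in shNC against 11.9 TPM in both shTPX2 libraries. Its groups did not overlap, and its log2 fold change was 0.33 (± 0.16 SE, edgeR adjusted p = 0.678, limma 95% interval −0.08 to 0.73). Leaving out single libraries moved this value only between 0.31 and 0.34, but the DEG call, with a limma p of 0.0983, was lost each time. The UMPS call was also lost with library size only (0.25), with quantile normalization (0.30) and with log2(TPM + 1), where the value was 0.18. DESeq2, the replicate block and a filter of at least 10 counts in every library ended it as well.

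**Figure D2:**
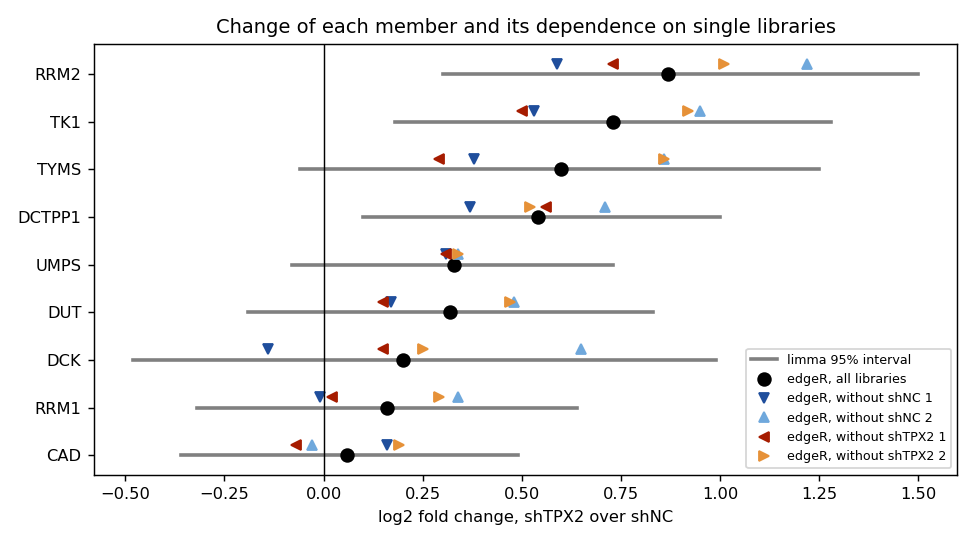
Log2 fold change of each enzyme, shTPX2 over shNC (horizontal axis). Black points give the edgeR value of all libraries, grey bars the limma 95% interval, and coloured triangles the edgeR value with 1 library left out. The edgeR values of RRM2, TK1, TYMS, DCTPP1, UMPS and DUT stay above 0 with any 1 library left out, while the limma interval lies above 0 for RRM2, TK1 and DCTPP1 and includes 0 for the other 6.

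Across the members, 5 had both shTPX2 libraries above both shNC libraries in log2 CPM, against 19.4% of all tested genes, and 4 did so in TPM, against 10.7%. Counted in either direction, 39.6% of all genes had groups without overlap in log2 CPM and 41.0% in TPM. In shNC the levels ran from TK1 over DCTPP1 to RRM2, RRM1, DUT and TYMS, then CAD, DCK and UMPS. The shNC values of TK1 and DCTPP1 overlapped, as did those of RRM2, RRM1, DUT and TYMS, and those of DCK and UMPS. The shNC values of RRM2 lay below those of TK1 and DCTPP1. In shTPX2 the values of TK1, DCTPP1 and RRM2 did not overlap with each other, nor did those of RRM2 with RRM1, DUT or TYMS. The control libraries were not alike. In TPM, shNC 1 was below shNC 2 in 8 of the 9 members, CAD being the exception, and shTPX2 1 was above shTPX2 2 in 7, DCTPP1 and UMPS being the exceptions. Without shNC 1 the DEG criteria held for 2 members, RRM2 and TK1, against 10.6% of all genes higher in that fit. Without shTPX2 1 they held for 3 (RRM2, TK1 and DCTPP1), against 4.79%, and without shNC 2 for 6, against 6.05%.

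The other genes of nucleotide metabolism were examined in 4 lists with 45 genes, of which 44 were tested. At the DEG criteria 10 were higher, 2 were lower and 32 did not pass, against 6.24% higher and 7.99% lower over all tested genes. The median log2 fold change of the 44 was 0.20. The folate list, which covers the cofactor of TYMS, had 2 of 6 genes higher. MTHFD1, an enzyme that interconverts folate one-carbon units, measured 56.2 and 67.9 TPM in the controls and 99.5 and 105 TPM after knockdown (log2 fold change 0.84 ± 0.17 SE, edgeR adjusted p = 0.454). DESeq2 gave MTHFD1 an adjusted p of 0.0119, and under the other alternatives it ranged from 0.22 to 0.976.

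Downstream of TYMS and TK1, DTYMK phosphorylates thymidylate to the diphosphate. It measured 54.4 and 62.8 TPM in the controls and 77.1 and 84.7 TPM after knockdown (log2 fold change 0.59 ± 0.17 SE, edgeR adjusted p = 0.579). NME1, a nucleoside diphosphate kinase, measured 181 and 155 TPM in the controls and 289 and 253 TPM after knockdown (log2 fold change 0.81 ± 0.18 SE, edgeR adjusted p = 0.470, 0.0497 from DESeq2). Under its other alternatives the adjusted p of NME1 ranged from 0.15 to 0.883. NME1 and its neighbour NME2 are close in sequence, so reads could be split between them. DTYMK, NME1 and MTHFD1 met the DEG criteria with any single library left out. In the list of dNTP supply and clean-up, DTYMK and NME1 were the 2 higher genes, RRM2B was the 1 lower gene, and the other 9 of 12 tested did not pass. SAMHD1, which degrades dNTPs, measured 16.4 and 17.2 TPM in the controls and 14.4 and 13.8 TPM after knockdown (log2 fold change −0.12, edgeR adjusted p = 0.889).

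In the list of pyrimidine ring, CTP and uridine genes, 3 of 10 were higher. CTPS1, which makes CTP from UTP, had a log2 fold change of 0.53, the uridine kinase UCK1 of 0.55 and the uridine phosphorylase UPP1 of 0.47. The CTPS1 call was lost without shTPX2 1 (0.42), that of UCK1 without shTPX2 2 (0.38), and that of UPP1 without shNC 2 (0.35) and without shTPX2 1 (0.22). DHODH, the mitochondrial step between CAD and UMPS, measured 4.06 and 5.71 TPM in the controls and 5.20 and 5.56 TPM after knockdown (log2 fold change 0.27 ± 0.31 SE, edgeR adjusted p = 0.853), and its log2 fold change was 0.06 without shNC 1 and 0.51 without shNC 2. DPYD, which opens the breakdown of pyrimidines and inactivates 5-fluorouracil, was the 1 lower gene. It measured 3.85 and 6.33 TPM in the controls and 2.13 and 2.96 TPM after knockdown, which gave a log2 fold change of −0.90 (± 0.34 SE, edgeR adjusted p = 0.606). The DPYD call was lost without shNC 2, where the value was −0.54, and without shTPX2 1. Of 16 purine genes 3 were higher, among them PAICS (0.45) and APRT (0.48), and 13 did not pass. The call of PAICS was lost without shNC 1 or shTPX2 1 (0.23), and that of APRT without any but shNC 1, with 0.23 without shNC 2 and 0.76 without shNC 1.

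A G1/S list of 18 genes and a G2/M list of 15 genes, neither with any of the 9 members, were set beside them. In these bulk libraries, more cells in a phase and more RNA per cell cannot be told apart. At the DEG criteria 15 of the 18 G1/S genes were higher and 0 lower, against 6.24% higher and 7.99% lower over all tested genes. Their log2 fold changes ran from 0.26 to 1.08 with a median of 0.77. This median was 0.59 without shTPX2 1, 0.90 without shTPX2 2 and 0.61 with log2(TPM + 1). PCNA, the sliding clamp of DNA polymerase, measured 199 and 234 TPM in the controls and 352 and 323 TPM after knockdown (log2 fold change 0.77 ± 0.18 SE, edgeR adjusted p = 0.470, 0.0363 from DESeq2), and under the other alternatives its adjusted p ranged from 0.259 to 0.961. By limma 0 of the 15 G2/M genes met the criteria, edgeR gave 0 at an unadjusted p under 0.05, and the median was 0.02. DESeq2 gave 0 as well. CCNB1, the mitotic cyclin B1, measured 75.4 and 143 TPM in the controls and 104 and 121 TPM after knockdown. All 15 G2/M genes were lowest in shNC 1 and highest in shNC 2 among the TPM values, so that the controls enclosed the knockdown libraries. The G2/M median was 0.67 without shNC 2, where all 15 genes were higher at the DEG criteria against 6.05% of all genes, and −0.40 without shNC 1, where 7 were lower, as were 1858 of all 14048 genes. Among the members, DCK and RRM1 also had their lowest TPM value in shNC 1 and their highest in shNC 2. The part of the cell cycle in the values of the members was not tested.

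**Figure D3:**
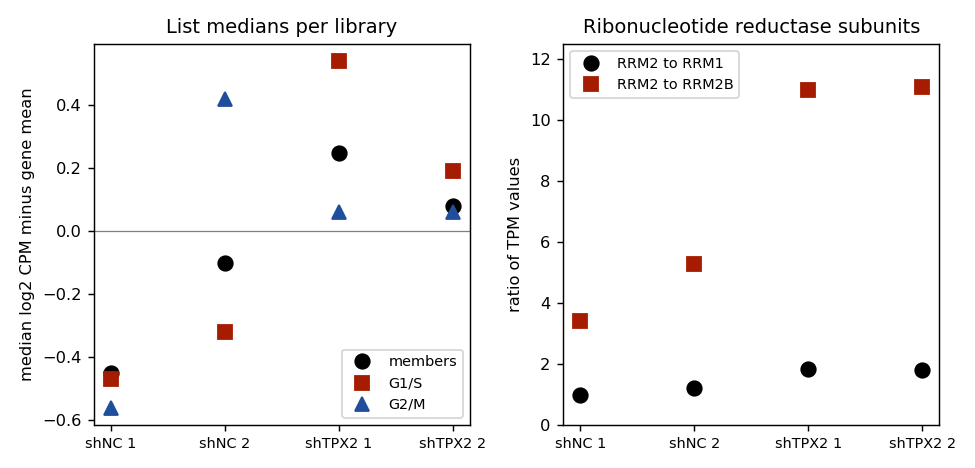
Left, the median over each list of log2 CPM minus the mean of the gene, for the 4 libraries. Right, the ratio of TPM values of RRM2 to RRM1 and of RRM2 to RRM2B in the same libraries, with 11 and 11.1 for the latter in shTPX2.

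Per library, the median of log2 CPM minus the mean of each gene was −0.45, −0.10, 0.25 and 0.08 over the members in shNC 1, shNC 2, shTPX2 1 and shTPX2 2. Over the G1/S list it was −0.47, −0.32, 0.54 and 0.19, and over the G2/M list −0.56, 0.42, 0.06 and 0.06. The members thus had their lowest value in shNC 1 and their highest in shTPX2 1, as the G1/S list had. The G2/M list also had its lowest value in shNC 1, but its highest in shNC 2. The mean profile of the members was also compared with 8515 genes outside all lists that had a mean log2 CPM of at least 4. The nearest by Euclidean distance over the 4 libraries were SH3TC2 (0.0336), LMNB2 (0.0557), UQCC2 (0.074), TUBB (0.0775) and HMGB1 (0.0817). With 4 libraries this likeness is a description of the values only.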

How the data were processed

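The deposited table gives, for each of 4 libraries, an expected count, FPKM and TPM per gene. The authors' methods name SOAPnuke for read cleaning, HISAT2 or Bowtie2 for alignment and either RSEM or StringTie for quantification, while the submitters' processing notes name HISAT2, featureCounts, DESeq2 and GRCh38. Versions, annotation and strand setting are not given in the sources used here. The deposited expected counts are not normalized for depth. The TPM and FPKM values were scaled by the authors, TPM was used for levels and FPKM in no result. The authors' group means were used in no test. They equal the mean of the 2 libraries within 0.01 TPM for 8.1% of genes in shNC and 7.14% in shTPX2.

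Expected counts were rounded to 0 decimals and filtered with filterByExpr, which left 14048 genes. The main comparison used edgeR 4.0.16 and its quasi-likelihood test (TMM factors from 0.959 to 1.05, Benjamini-Hochberg adjustment over all tested genes). The DEG criteria follow the study's methods, which do not give the base of the logarithm (base 2 was assumed, in either direction), and used limma 3.58.1 with voom, in R 4.3.3. Log2 CPM used a prior count of 2. The common dispersion was 0.0485, so the spread between libraries limits precision more than depth. The alternatives were DESeq2 1.42.0, other scalings and filters, log2(TPM + 1), the replicate number as a block and leaving out each library. In the DESeq2 alternative the thresholds of the DEG criteria were applied to the p-value and fold change of DESeq2. With log2(TPM + 1) they were applied to those of limma without voom. Where 1 library was left in a group, it was assumed to vary like the others. The fits were tested on simulated counts. Loci and upstream sequences were taken from RefSeq (GRCh38.p14), where all 9 members matched by gene number.

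The members and lists were chosen with earlier results of these data known. The genes named were TPX2, the members, the pathway genes that met the DEG criteria, a few set genes (RRM2B, SAMHD1, DTYMK, DHODH, CTPS1, TK2, ENOSF1, PCNA and CCNB1) and the 5 genes nearest in profile. Some genes under this rule are not reported here. Protein sequences are not shown.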

Additional observations from a re-analysis of the deposited data

How the results depend on the processing

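RRM2 and TK1 were higher at the DEG criteria under every alternative run, and no alternative called a member at an adjusted p under 0.05. With log2(TPM + 1), 3 members were higher, and with 1 library left out 2 to 6. Members with both shTPX2 libraries above both controls numbered 5 to 8 with 1 library left out, when 32.7% to 37.5% of all genes did so. The median over the members was then 0.29 to 0.65, and 0.18 with log2(TPM + 1). The log2 fold change of CAD was −0.01 with library size only, −0.02 with log2(TPM + 1) and −0.07 to 0.19 with 1 library left out. With 1 library left out RRM1 ranged from −0.01 to 0.34, DUT from 0.15 to 0.48, DCK from −0.14 to 0.65, TK2 from −0.11 to 0.01 and CCNB1 from −0.20 to 0.67. The G2/M median was −0.06 with library size only and −0.40 to 0.67 with 1 library left out. Over all genes, 578 were higher with library size only, 440 with log2(TPM + 1), where 1684 were lower, and 507 to 1487 were higher and 593 to 1858 lower with 1 library left out. With 1 library left out, pathway genes higher numbered 4 to 14 and lower 1 to 2. The causes of these shifts were not tested. The median of all genes was −0.08 with library size only and −0.10 with log2(TPM + 1). The overlap in TPM, and every alternative for the cell cycle lists, for the difference between RRM2 and RRM1 and for single genes other than TPX2 and the members, were chosen after seeing the data.

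The labels do not say that a replicate number marks a shared batch or day. Deviations from the group means correlated at 0.182 over 2 pairs, too few to decide the pairing. With the replicate block, 4 members were higher (RRM2, TK1, TYMS and DCTPP1), as were 1084 of all genes, and the call of UMPS was lost. The smallest adjusted p of a member was then 0.495 from edgeR.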

Other observations

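The deposited table also holds the authors' mean TPM for each group, and these are not the means of the 2 libraries. For RRM2 the authors' mean was 85.1 TPM in shNC and 127 TPM in shTPX2, and for TK1 it was 147 and 205 TPM. For TYMS it was 73.7 and 80.1 TPM, and for DCTPP1 115 and 124 TPM. The authors' mean was higher in shTPX2 for 8 of the 9 members, CAD being the exception at 38.7 and 38.2 TPM. On the log2 scale the difference of these means was 0.58 for RRM2 and 0.48 for TK1 but 0.12 for TYMS and 0.10 for DCTPP1. The authors' shNC mean lay above both shNC libraries for 8 of the 9 members, and the authors' shTPX2 mean above both shTPX2 libraries for all 9. For TPX2 it was 138 TPM in shNC and 64.5 TPM in shTPX2. The sources used here do not say what else entered these means. In shNC, DCN measured 0.05 and 0.0 TPM, with an authors' mean of 0.0167 TPM. VWF measured 0.12 and 0.09 TPM there, and its authors' mean of 0.07 TPM lay below both libraries. Such values can arise when more than 2 libraries are averaged. Whether a further library entered, and lies behind the smaller differences of TYMS and DCTPP1 in these means, was not tested.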
